A study of Mus musculus with 12 samples.

Results

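The difference in spleen small RNAs between ovalbumin-injected and saline-injected female mice 14 days into the protocol was described from 6 of the 12 arrays of the study. The arrays were chosen by their titles. OVA day 14 comprised 4 arrays of spleen from mice given 3 intraperitoneal injections of ovalbumin, on days 1, 3 and 5, at 0.05 mg per day. Saline day 14 comprised 2 arrays of spleen from mice injected with normal saline on the same days. The mice of both arms were 8 weeks old at the start, and no strain, genotype or shared pretreatment is given in the labels. The other 6 arrays, 4 OVA and 2 saline, came from spleens taken on day 28. They enter through the estimate of spread, the merging of identical probe sets and where a value is set beside its day 28 value. Some alternative settings also use them, among them quantile normalization, array weights and the level over 12 arrays.

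Ovalbumin is the main protein of egg white and is widely used as a model allergen. Injected into the peritoneum, it reaches the spleen, among other organs, where B cells, helped by T cells, can switch to making IgE against it. MicroRNAs are short RNAs that guide Argonaute proteins to messenger RNAs and lower their translation or stability, and several of them are needed for germinal centre responses and T helper cell differentiation. According to the series' design text, IgE against OVA was measured in blood and the mice with high titres were taken for the arrays. The OVA arrays therefore stand for strong responders and not for all injected mice. The labels do not tie each array to its own mouse, so all p-values measure the spread between these arrays, which may be technical. Whole spleen was used, so fewer cells of a type and less RNA per cell cannot be told apart in any of the differences below.

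Each probe set of the array has 1 processed intensity per sample on a linear scale, which was converted to log2. Probe sets with identical values on all 12 arrays were counted once, which reduced 36249 probe sets to 25112 distinct abundance profiles. Of these, 2367 had a mean log2 intensity (called level here) of at least 1 over the 6 day 14 arrays, and they are the profiles described. They stand for 5016 probe sets, since 1850 profiles belong to 1 probe set each and 517 to several, up to 55. Profiles with a level of at least 4 are called bright and number 990. The threshold of 1 crosses a continuous range: the 5 profiles just inside it, at levels of 1.001 to 1.003, had OVA minus saline differences of -0.19 to 0.84 log2 units, and the 5 just outside, at 0.997 to 0.9999, had differences of -0.38 to 0.40. The files give probe sets by number only, and none of the numbers was found in the RefSeq gene table. No miRNA is therefore named here and no sequence shown, and the spleen label could not be checked against marker miRNAs. The numbers of 4 profiles are given below, chosen as the 2 with the smallest p in each direction, and where a profile is shared by several probe sets its lowest number stands for all.

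The 6 arrays were of similar brightness. The median intensity over all probe sets was 1.04 to 1.08 on the OVA arrays and 1.03 and 1.07 on the saline arrays, which is the floor at which most probe sets lie. A background limit was set for each array as far above its median as its 0.1 percentile lay below, at log2 values of 0.59 to 0.66 on the OVA arrays and 0.54 and 0.65 on the saline arrays. Between 2285 and 2349 of the 2367 described profiles lay above it on the OVA arrays, and 2328 and 2303 on the saline arrays. The mean intensity of all probe sets was 42.4 ± 1.5 in OVA (SD, n = 4) and 44.1 ± 0.93 in saline (SD, n = 2). The mean log2 intensity of the described profiles was 4.18 ± 0.078 in OVA (SD, n = 4) and 4.05 ± 0.0033 in saline (SD, n = 2), and all 4 OVA arrays (4.07 to 4.24) lay above both saline arrays (4.06 and 4.05). Over the bright profiles alone it was 6.95 ± 0.043 in OVA and 6.92 ± 0.027 in saline (SD). In two-sided exact permutation tests these measures had p-values of 0.27, 0.13 and 0.40, each 0.40 after adjustment over the 3 tests. With 4 against 2 arrays, no exact test of this kind can go below 0.067.

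A single profile was called as differing between the arms at a limma adjusted p under 0.05. It is shared by 9 probe sets with identical values (number 20503803) and was of middle level, at rank 1101 of 2367. Its log2 intensity was 4.65, 4.83, 4.16 and 4.05 on the 4 OVA arrays, against 1.65 and 2.24 on the saline arrays. Every OVA array lay above both saline arrays, with a gap of 1.81 log2 units between the lowest OVA and the highest saline array. The profile was 5.56-fold higher in OVA spleens (log2 difference 2.47, SE 0.31, 95% interval 1.80 to 3.15, limma adjusted p = 0.013). It was the only 1 of the 2367 profiles called at a limma adjusted p under 0.05, a share of 0.0422%, and at an unadjusted p under 0.05 limma gave 260 profiles (11.0%), 186 higher and 74 lower in OVA. The call was lost, at a size close to the full one, without OVA replicate 1 (log2 difference 2.40, limma adjusted p = 0.058), without saline replicate 1 (2.18, limma adjusted p = 0.13), and when the spread was estimated from the 6 day 14 arrays alone (limma adjusted p = 0.12). Over all 17 other settings its limma adjusted p ran from 0.0030 to 0.13. Without OVA replicate 4 the difference was 2.60.

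The profile with the next smallest p, that of probe set 20523650, stood lower on the scale. It had log2 intensities of 2.42, 2.38, 3.04 and 2.06 on the OVA arrays, against 0.81 and 1.03 on the saline arrays. The arms did not overlap, and the saline values were 0.27 and 0.38 log2 units above the background limits of their arrays. The log2 difference was 1.56 (SE 0.26, 95% interval 1.00 to 2.12), a 2.94-fold ratio, with a limma adjusted p of 0.084 that missed the threshold. It passed without OVA replicate 4, at a log2 difference of 1.70 and a limma adjusted p of 0.044, and with array weights (limma adjusted p = 0.041). It also passed when every probe set was tested (limma adjusted p = 0.031), where identical probe sets count several times. With the spread estimated from the 6 day 14 arrays alone, its limma adjusted p was 0.31.

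No profile was called lower in OVA by limma. Of the 2367 described profiles, 260 (11.0%) had an unadjusted limma p under 0.05, and 74 of them were lower in OVA. The smallest p among the lower ones belonged to probe set 20516743. It had log2 intensities of 0.62, 1.66, 1.36 and 0.55 on the OVA arrays, against 2.44 and 2.25 on the saline arrays. The arms did not overlap. OVA replicates 1 and 4 were under the background limits of their arrays (0.63 and 0.62), so their level is only bounded from above. The log2 difference of the measured values, which carries that limit, was -1.29 (SE 0.30, limma adjusted p = 0.26). The next was a profile of 10 probe sets (number 20503811), at 3.02, 3.56, 3.45 and 3.95 on the OVA arrays, against 4.50 and 4.60 on the saline arrays. OVA replicate 4 was the OVA array closest to the saline arrays, and the saline arrays had nearly the same value. The log2 difference was -1.05 (SE 0.27, limma adjusted p = 0.26) with all arrays and -1.20 without OVA replicate 4.

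**Figure D1:**
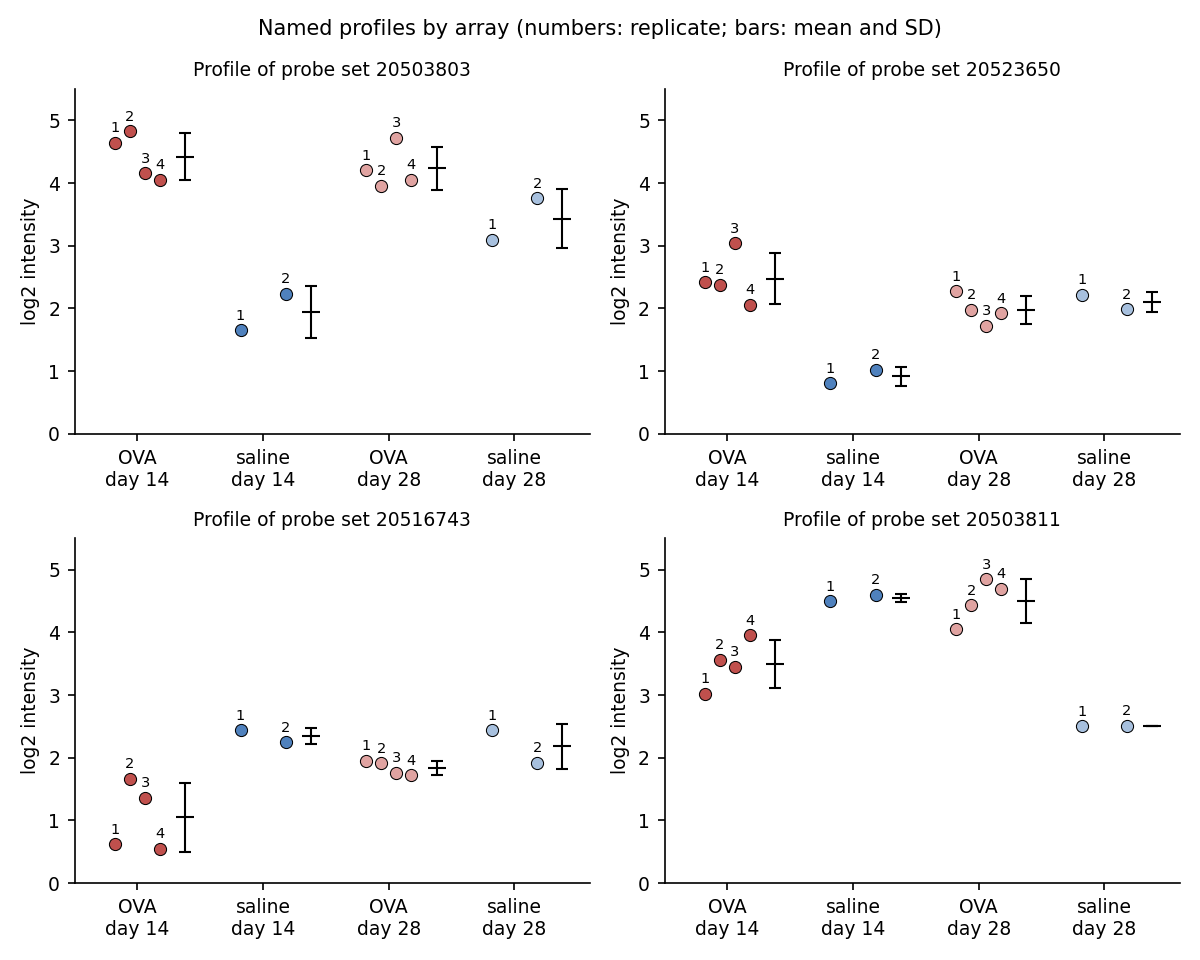
Log2 intensity (vertical axis) of the 4 named profiles on all 12 arrays, as points numbered by replicate, with mean and SD to the right of each group. At day 14 the OVA and saline arrays do not overlap in any of the 4 panels. The 2 upper profiles have their lowest values in saline day 14, and 20503811 has its lowest, 2.50 and 2.51, in saline day 28.

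Saline day 14 was the lowest of the 4 groups for both higher profiles. At day 28, 20503803 stood at 4.23 ± 0.34 in OVA (SD, n = 4) and 3.43 ± 0.47 in saline (SD, n = 2). The OVA effect at day 28 minus that at day 14 was -1.67 log2 units (SE 0.44, limma adjusted p = 0.024), and without saline day 14 replicate 1 it was -1.38, with a limma adjusted p of 0.094, the highest of 9 other settings (0.018 to 0.094). For 20523650 the day 28 values were 1.98 ± 0.23 in OVA and 2.11 ± 0.16 in saline (SD), and the effects differed by -1.69 (SE 0.36, limma adjusted p = 0.011). The profile of 20503811 moved the other way, with 4.51 ± 0.35 in OVA and 2.51 ± 0.0063 in saline at day 28 (SD) and a difference of effects of 3.05 (SE 0.38, limma adjusted p = 0.0023). For 20516743 the difference of effects was 0.95 (SE 0.43, limma adjusted p = 0.14), which uses the OVA day 14 values under the background limit as measured. The profiles were named for their day 14 difference, which favours a difference between the days. Over all described profiles the day 14 effect differed from the day 28 effect in 436 (18.4%) by limma's adjusted p, and in 234 and 206 without saline day 14 replicate 1 and replicate 2.

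The largest separations were few and lay among dim profiles. Of the 2367 described profiles, a gap of at least 1 log2 unit between the arms was found in 5 higher and 2 lower in OVA, none bright. A gap of at least 0.5 was found in 37 higher and 11 lower, of which 2 and 0 were bright. These gaps were not counted over all 25112 profiles. Dim profiles also spread more, with a median SD within OVA of 0.43 at levels from 1 to 4 and 0.22 in bright profiles. Besides the 2 higher profiles described above, 3 higher ones had a gap of at least 1 log2 unit. One, shared by 11 probe sets, read 3.75, 4.15, 2.44 and 3.34 on the OVA arrays, against 1.30 and 1.19 on the saline arrays, a 4.53-fold ratio with a limma adjusted p of 0.28. The OVA arrays of this profile spread over more than 1 log2 unit while the saline arrays were close to each other. Another read 2.82, 3.12, 3.30 and 2.81 in OVA, against 0.93 and 1.73 in saline (3.21-fold, limma adjusted p = 0.14). The third read 2.27, 3.83, 2.98 and 2.96 in OVA, against 0.97 and 1.01 in saline (4.06-fold, limma adjusted p = 0.32).

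The 2 lower profiles with such a gap had wide spreads among the OVA arrays at day 28 (SD 0.90 and 1.7), which enter the SE. Of the 3 higher profiles just given, the first and the third had wide spreads there as well (SD 0.99 and 1.06). The lower profile of 11 probe sets read 1.38, 2.15, 2.18 and 2.26 in OVA, against 3.29 and 3.87 in saline, with a log2 difference of -1.58 (SE 0.48, limma adjusted p = 0.32). A profile of 1 probe set had the lowest difference of all, -2.14 (SE 0.78, limma adjusted p = 0.40), from 0.49, 1.04, 0.92 and 1.42 in OVA, against 3.12 and 3.09 in saline. Its OVA replicate 1 lay under the background limit. These 5 profiles were singled out after their values were seen. At day 28 the first of the higher ones stood at 2.22 ± 0.99 in OVA and 2.83 ± 0.74 in saline (SD, n = 4 and 2). The second stood at 2.98 ± 0.48 and 2.81 ± 0.26, and the third at 2.49 ± 1.06 and 3.61 ± 0.37. The 2 lower ones stood at 4.04 ± 0.90 and 1.38 ± 0.31, and at 2.25 ± 1.7 and 0.60 ± 0.35.

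Across the 2367 described profiles most differences were small. The median OVA minus saline difference was 0.11 log2 units, the middle 50% ran from -0.14 to 0.38, and the extremes were -2.14 and 2.47. A difference of at least 1 log2 unit, a 2-fold ratio, was reached by 73 profiles that were higher and 23 that were lower in OVA. In 55 and 17 of these the arms did not overlap. A large difference on the same arrays favours arms that do not overlap, so these counts are no separate check. The median size of the difference was 0.27, against a median SD of 0.32 within the 4 OVA arrays and a median gap of 0.29 between the 2 saline arrays. The first of these is a difference of means of 4 and of 2 arrays and the others are spreads of single arrays, so they are not on an equal footing, and the median SE of the difference was 0.28. The 95% limma interval of the difference, not adjusted for the number of profiles, lay wholly within 1 log2 unit of 0 in 1365 profiles (57.7%).

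**Figure D2:**
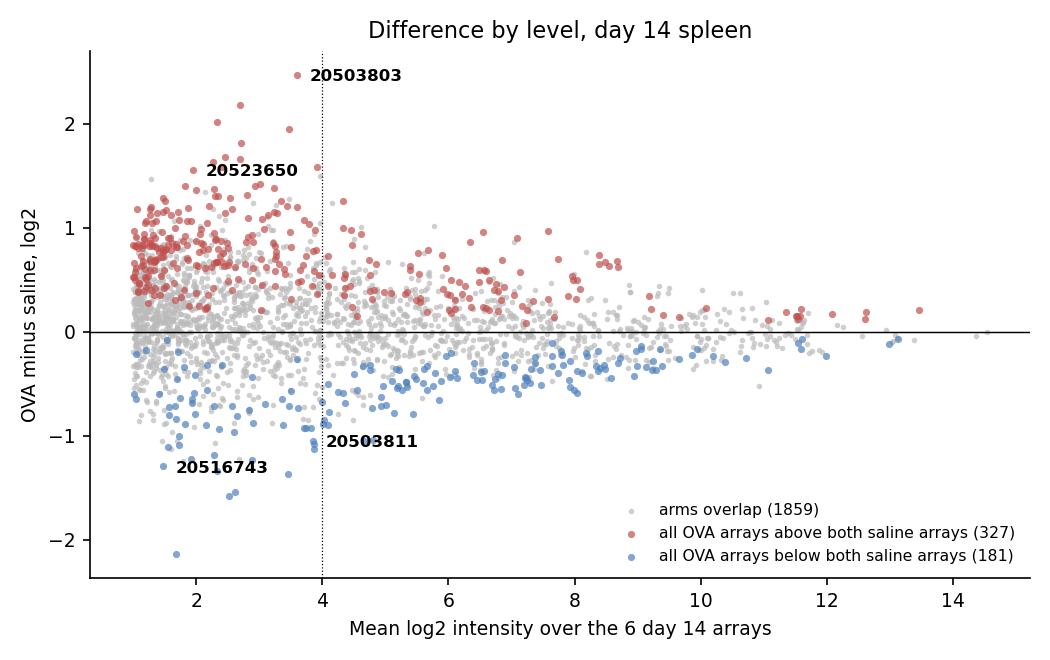
OVA minus saline difference in log2 units (vertical axis) against level, the mean log2 intensity over the 6 day 14 arrays (horizontal axis), with 1 point for each of the 2367 described profiles. Coloured points are profiles whose arms do not overlap, 327 higher and 181 lower in OVA, and the dotted line marks the bright level of 4; above that line the spread of the differences narrows with level.

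Above a level of 4, both the differences and the spread were smaller at each brighter level, while below it they were wide throughout. At levels from 1 to 2, the 724 profiles had a median size of difference of 0.33, a median OVA SD of 0.43 and a median saline gap of 0.38. At levels from 2 to 4 (653 profiles) these were 0.36, 0.42 and 0.43, and at levels from 4 to 6 (410 profiles) 0.26, 0.26 and 0.30. At levels from 6 to 8 (294 profiles) these were 0.21, 0.22 and 0.17. The 115 profiles at a level of 10 or more had 0.11, 0.13 and 0.086. Levels of different probe sets do not rank the abundance of their RNAs. With each distinct profile counted once, these 115 profiles carried 66.9% to 68.1% of the summed intensity on the OVA arrays. On the saline arrays they carried 67.7% and 67.6%. Their differences ran from -0.52 to 0.40 log2 units, none had an unadjusted limma p under 0.05, and for 112 of them (97.4%) the interval lay within 1 log2 unit of 0. The share was 81.1% for all bright profiles and 40.8% for those at levels from 1 to 4. The brightest profile, of 1 probe set, had 14.51, 14.55, 14.54 and 14.56 on the OVA arrays, against 14.54 and 14.54 on the saline arrays, a difference of -0.0013 (SE 0.14). Whether it is a miRNA or a control probe set is not given in the sources used here.

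In 508 described profiles (21.5%) the OVA arrays lay wholly above or wholly below both saline arrays. There were 327 above (13.8%) and 181 below (7.65%), against 7.18% and 6.86% over all 25112 profiles of the table. The excess of higher profiles lay among the dimmer ones. At levels from 1 to 4, 222 of 1377 profiles were above (16.1%) and 59 below (4.28%), while among the 990 bright profiles 105 were above (10.6%) and 122 below (12.3%). Below the level of 1, where values sit at the floor, the shares were 6.49% above and 6.78% below. The lean of the dim profiles depended on scaling. After quantile normalization of the described profiles over all 12 arrays, 109 of the dim ones lay above and 126 below. The median difference of all described profiles shifted by -0.11 to -0.0039. Centring each array on its bright profiles left the counts at 217 above and 59 below. Of all 508, 64.4% were higher in OVA with the values as deposited, and of the 446 after quantile normalization 46.2% were.

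**Figure D3:**
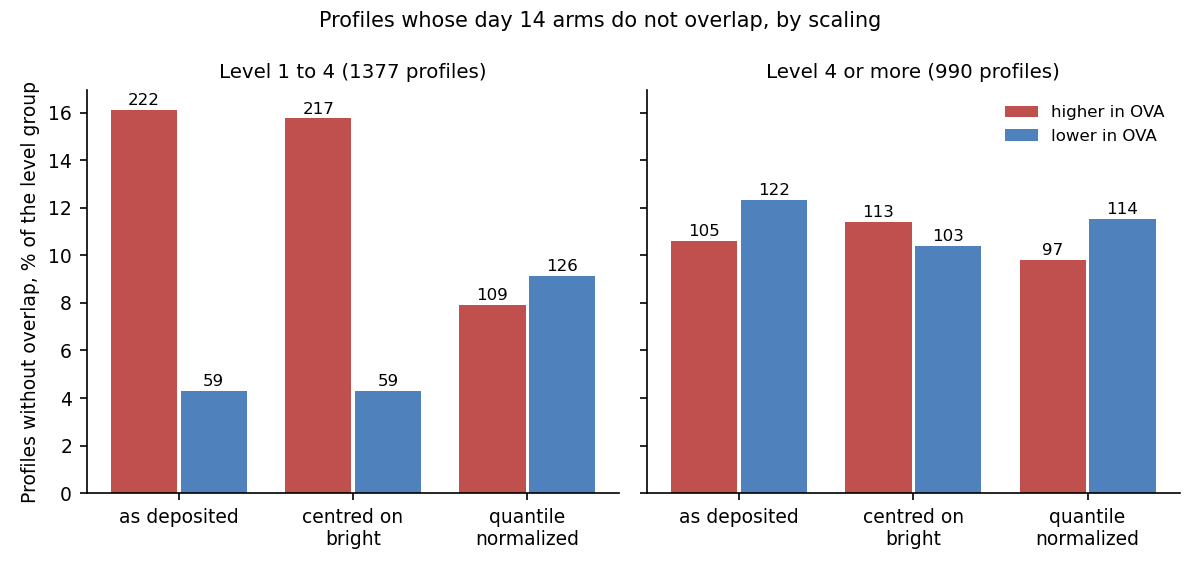
Share of profiles whose day 14 arms do not overlap (vertical axis, percent of the level group; counts above the bars), for profiles at levels from 1 to 4 (left) and bright profiles (right), with 3 scalings of the same arrays. The excess of higher over lower dim profiles, 222 against 59, becomes 109 against 126 after quantile normalization, and the bright profiles stay near balance.

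With the values as deposited, profiles shared by several probe sets and single ones alike held more higher than lower ones when dim. Both held more lower than higher ones when bright. Among the 517 shared profiles, 69 were without overlap above saline (13.3%) and 67 below (13.0%), and their median difference was -0.0020 log2 units. The dim shared profiles held 32 above (14.5%) and 18 below (8.18%), with a median difference of 0.12, and the dim single ones 190 above (16.4%) and 41 below (3.54%), with a median of 0.21. Among the 1850 single ones, 258 were above (13.9%) and 114 below (6.16%), with a median of 0.13. Of the shared profiles 297 were bright, and of the single ones 693. Within the bright profiles, 37 shared ones were above (12.5%) and 49 below (16.5%), and 68 single ones were above (9.81%) and 73 below (10.5%). The difference between shared and single profiles was not tested.

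OVA replicate 4 stood nearer to the saline arrays than the other OVA arrays did. Over the described profiles it correlated with the saline arrays at Pearson r of 0.981 and 0.982, and with OVA replicates 1, 2 and 3 at 0.975, 0.972 and 0.974. Among themselves, OVA replicates 1, 2 and 3 correlated at 0.978 to 0.981, and the saline arrays with each other at 0.982. OVA replicates 1, 2 and 3 correlated with the saline arrays at 0.969 to 0.977. These correlations are across profiles of the same array design, whose shared differences in level keep them all high, and profiles are not independent replicates. The label of OVA replicate 4 was kept throughout.

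**Figure D4:**
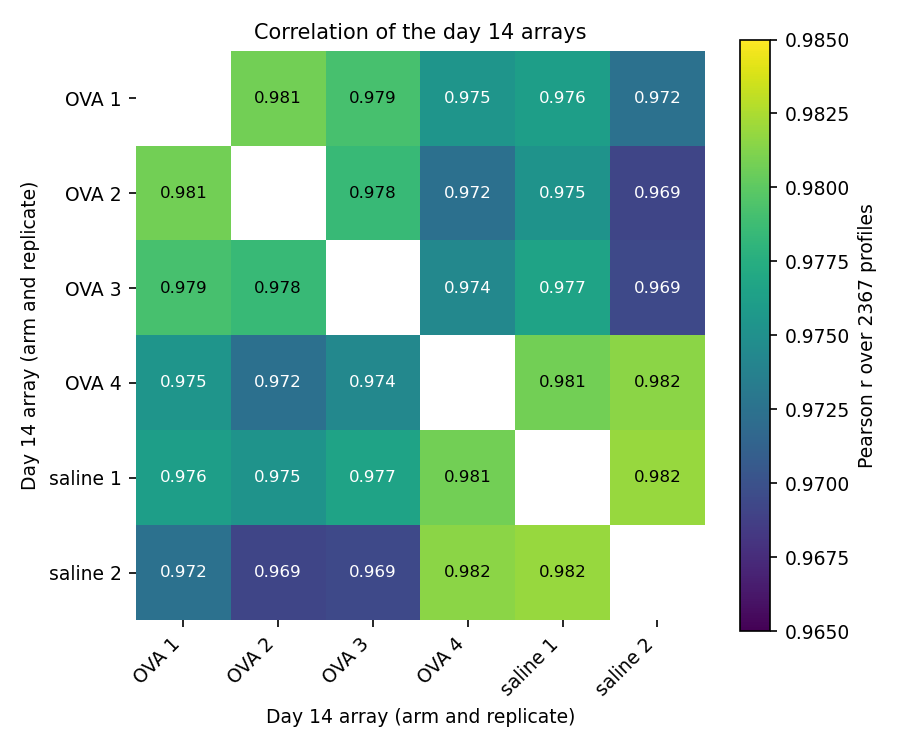
Pearson correlation of log2 intensity over the 2367 described profiles for each pair of the 6 day 14 arrays (rows and columns; colour gives r). OVA replicate 4 has 0.981 and 0.982 with the saline arrays and 0.972 to 0.975 with the other OVA arrays.

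The same placement was seen profile by profile. Each OVA array was compared with the mean of the other 3 OVA arrays and with the mean of the saline arrays. OVA replicate 4 was nearer the saline mean in 1344 of the 2367 described profiles (56.8%), and OVA replicates 1, 2 and 3 in 903 (38.1%), 867 (36.6%) and 844 (35.7%). Its median distance was 0.32 log2 units to the other OVA arrays and 0.26 to saline, while for replicates 1, 2 and 3 it was 0.24 to 0.26 to the other OVA arrays and 0.34 to 0.39 to saline. The contrast was wider in the bright profiles, where replicate 4 was nearer saline in 65.8% and the others in 27.9%, 34.2% and 34.7%. The mean of the other OVA arrays rests on 3 arrays and that of saline on 2, for each of the 4 comparisons alike.

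**Figure D5:**
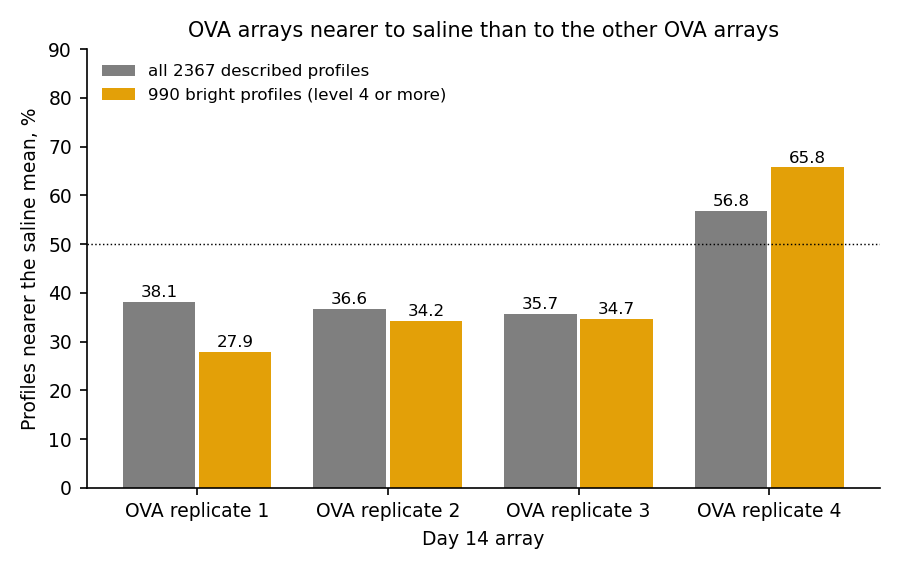
Percentage of profiles (vertical axis) in which each OVA day 14 array lay nearer the mean of the 2 saline arrays than the mean of the other 3 OVA arrays, for all described and for bright profiles. Replicate 4 is above the dotted line at 50% in both sets (56.8% and 65.8%), and replicates 1 to 3 are below it (27.9% to 38.1%).

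Leaving out OVA replicate 4 widened the separation of the arms. Without it, the 3 remaining OVA arrays lay wholly above saline in 552 profiles and wholly below in 345. Replicate 4 lay on the same side in 327 (59.2%) and 181 (52.5%) of these. For the other OVA arrays the same shares were 72.7% to 85.6% above and 77.4% to 87.4% below. Fewer arrays make such separation easier. Leaving out OVA replicate 1, 2 or 3 gave 657 (27.8%), 635 (26.8%) and 616 (26.0%) profiles without overlap, against 897 (37.9%) without replicate 4. With 3 OVA arrays the shares over all 25112 profiles were not computed. Without replicate 4, 453 bright profiles were apart, 230 above and 223 below, against 227 with all arrays, and the dim ones numbered 322 above and 122 below. Within the 508 profiles that stayed apart with all arrays, replicate 4 was the OVA array nearest saline in 144 of the 327 higher (44.0%) and 113 of the 181 lower ones (62.4%). For OVA replicates 1, 2 and 3 these shares were 24.2%, 14.1% and 17.7% of the higher and 8.29%, 12.7% and 16.6% of the lower. All these counts use the same values as the placement above and are no separate check on it. The limma count of calls without replicate 4 was 2, both higher in OVA, and the median difference was 0.12.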

How the data were processed

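Total RNA containing the small fraction was extracted from snap-frozen spleen and biotin-labelled with an Affymetrix FlashTag kit, per the labels' protocols. The deposited table holds 1 intensity per probe set and sample on a linear scale, from 0.627 to 24076; how it was summarised and normalized, and when arrays were scanned, is not given in the sources used here. Values were converted to log2 without a pseudocount. The arrays' number limits the precision.

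For the 2367 described profiles, group means were estimated from all 12 arrays in 1 linear model with limma 3.58.1 in R 4.3.3 (lmFit, eBayes; 8 residual and 3.26 prior degrees of freedom), with two-sided tests and Benjamini-Hochberg adjustment over these profiles. The named profiles are the 2 with the smallest p in each direction. Lists of marker miRNAs for lymphocytes, myeloid, erythroid, endothelial, stromal, muscle, liver and pancreas cells and the let-7 family could not be applied without names. The profiles, lists and tests were chosen with earlier results of these data known. The fit was also run on simulated profiles with independent normal noise, where the only requirement was a median estimate close to the added difference. The share of added differences that were called is not reported here.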

Additional observations from a re-analysis of the deposited data

Results flagged for a closer look

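The OVA effect differed between the days by limma's test of the difference itself in 436 described profiles, 277 of them positive and 159 negative for day 28 minus day 14, and 813 had an unadjusted p under 0.05. Centring each array on its bright profiles gave 489, 252 positive and 237 negative, so the lean to positive depends on the scaling, and quantile normalization gave 284 and 159. Among the named profiles the effect at day 28 minus that at day 14 was -1.67 log2 units for 20503803, -1.69 for 20523650 and 3.05 for 20503811. In 13 checks for an OVA array far from the rest of its group, in the named profiles, the brightest profile and the array means, none was found by Dixon's test, although OVA day 14 replicate 4 was nearer the saline arrays across profiles.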

How the results depend on the processing

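The count of profiles called at day 14, 1 with all arrays, was 1 with no level filter, a level of at least 2, a level of at least 1 over 12 arrays, trend and robust variances, quantile normalization, centring on bright profiles and log2(value + 1). It was 10 when every probe set was tested, of which identical ones count several times, 2 with array weights, 0 in the fit to the 6 day 14 arrays alone (260 at an unadjusted p under 0.05) and 260 without adjustment. With the replicate number as a block it was 7, 4 higher and 3 lower, and 497 profiles had an unadjusted limma p under 0.05, against 260 without the block. The same-numbered arrays of the arms did not deviate together at day 14 (correlations of -0.0066 and -0.079). The deviations of the 2 saline arrays mirror each other, so these are not separate checks, and day 28 was not included. Pairing by number was therefore not settled, and the numbers were not taken as pairs. Leaving out 1 day 14 array gave 0 to 2 calls. Profiles without overlap numbered 616 to 1119 (26.0% to 47.3% of those described) when 1 array was left out, since fewer arrays are easier to separate. The median difference over the described profiles was -0.0039 log2 units after quantile normalization, which sets the distributions of the arrays equal. The count of profiles whose effect differed between the days was 206 to 562 when 1 day 14 array was left out. The call of 20503803 kept its side of the threshold in 14 of 17 settings, at log2 differences of 2.18 to 2.77 over all of them, and 20523650 passed in 3 of 16, at 1.19 to 1.70. Neither lower profile passed in any setting with an adjusted p, and their differences ran from -1.55 to -0.97 for 20516743 and from -1.29 to -0.89 for 20503811. Among the 3 settings in which 20523650 passed was the test of every probe set, where identical ones count several times. No sign was reversed in the named profiles. The counts by level were repeated under these settings after the data were seen. Signal over background limits the dim profiles most, and with 2 saline arrays the spread rests on the other groups.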
